A study of Homo sapiens with 12 samples.

Results

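The CLIC genes encode the chloride intracellular channel family, and all 6 human members, CLIC1 to CLIC6, had a value on the arrays, out of 14884 genes tested. They were taken by symbol, as a complete family, and the family itself was chosen by its array signals in these data, among them the fall of CLIC6 under JQ1 in MDA-MB-231. The comparisons of JQ1 with vehicle in each cell line and of the lines with each other were part of how the family was chosen, so the members' values in them are given as a description, with an error and no p-value, and a call of a member there only sorts it by a threshold and supports nothing.

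Human Gene 2.0 ST arrays gave the RNA levels of 12 samples in 4 groups of 3. MDA-MB-231 and HCC70 are established human triple-negative breast cancer lines, and each stands here as a single line. Treatment lasted 72 hours, with 500 nM JQ1 in one group of each line and with 0.1% DMSO, the vehicle, in the other. JQ1 occupies the acetyl-lysine pockets of BET bromodomain proteins and displaces them from chromatin. Whether replicates were grown as separate cultures is not stated in the labels. Errors and p-values therefore cover the spread of these arrays alone, which may be technical, and the small number of arrays limits the precision.

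CLIC proteins share the fold of the cytosolic glutathione S-transferases. They occur as soluble proteins in the cytoplasm and can also associate with membranes, where they form anion-conducting pores in artificial bilayers. Their part in cells is tied to redox chemistry, to the actin cortex beneath the membrane, to vesicle traffic and to integrin and TGF-beta signalling as much as to chloride flow. CLIC1 and CLIC4 are expressed in most tissues, whereas the other members are more restricted.

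As a check of exposure, BRD2, a target of JQ1, rose under JQ1 by 0.86 in MDA-MB-231 and 1.22 in HCC70 (log2 change), and the transcription factor MYC fell by 0.41 and 0.92 (limma adjusted p at most 0.0076 with Benjamini-Hochberg adjustment). HEXIM1, which holds the elongation factor P-TEFb inactive, rose by 0.59 and 1.11 (limma adjusted p = 0.0036 and 4.8e-05). With the mean of its clusters in place of the brightest one, the HEXIM1 change in HCC70 was 0.28 (adjusted p = 0.37). In vehicle, 5 of 7 measured epithelial markers were called higher in HCC70 than in MDA-MB-231 and 1, KRT18, lower. Among 4 mesenchymal markers, 3 were called lower in HCC70 and 1, TWIST2, higher. Between the vehicle-treated lines 23.8% of all genes were called higher in HCC70 and 23.2% lower. The epithelial adhesion molecule EPCAM lay at a log2 signal of 10.31 in HCC70 and 7.41 in MDA-MB-231, and vimentin, VIM, at 7.13 and 10.42. Of 4 stromal and endothelial markers measured, 3 lay below the lower quartile of all genes in each group. Of the blood markers 2 were measured, CD68 and CSF1R, and 0 lay below it. Arrays of a group correlated at 0.989 to 0.995 over all genes. Replicate 3 of MDA-MB-231 vehicle, of MDA-MB-231 JQ1 and of HCC70 JQ1 deviated most from its group mean (SD over genes 0.166, 0.168 and 0.161, against 0.119 to 0.159 for the other 9 arrays), and the fit was repeated without these 3.

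JQ1 moved the family in different directions. In MDA-MB-231 CLIC6 fell 9.09-fold, CLIC5 at least 2.11-fold and CLIC1 1.55-fold, while CLIC3 rose 2.12-fold. In HCC70 CLIC3 rose 2.97-fold and CLIC1 fell 1.40-fold. CLIC1 and CLIC3 thus moved the same way in both lines, and these are the only members called in both. A gene is called where the adjusted p of limma over all 14884 genes is under 0.05, and "rose" and "fell" are used of called genes only. In MDA-MB-231, 3 of 6 members were called lower, beside 17.0% of all genes, and 1 was called higher, beside 10.8%. In HCC70, 1 member was called lower, beside 12.5% of all genes, and 1 higher, beside 9.18%. With arrays centred on their medians, 14% of all genes were called lower and 14.7% higher in MDA-MB-231, and 10.1% and 12.9% in HCC70. The median log2 change of the 6 members was -0.36 in MDA-MB-231 and -0.24 in HCC70, against 0.017 and 0.0057 over all genes.

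**Figure D1:**
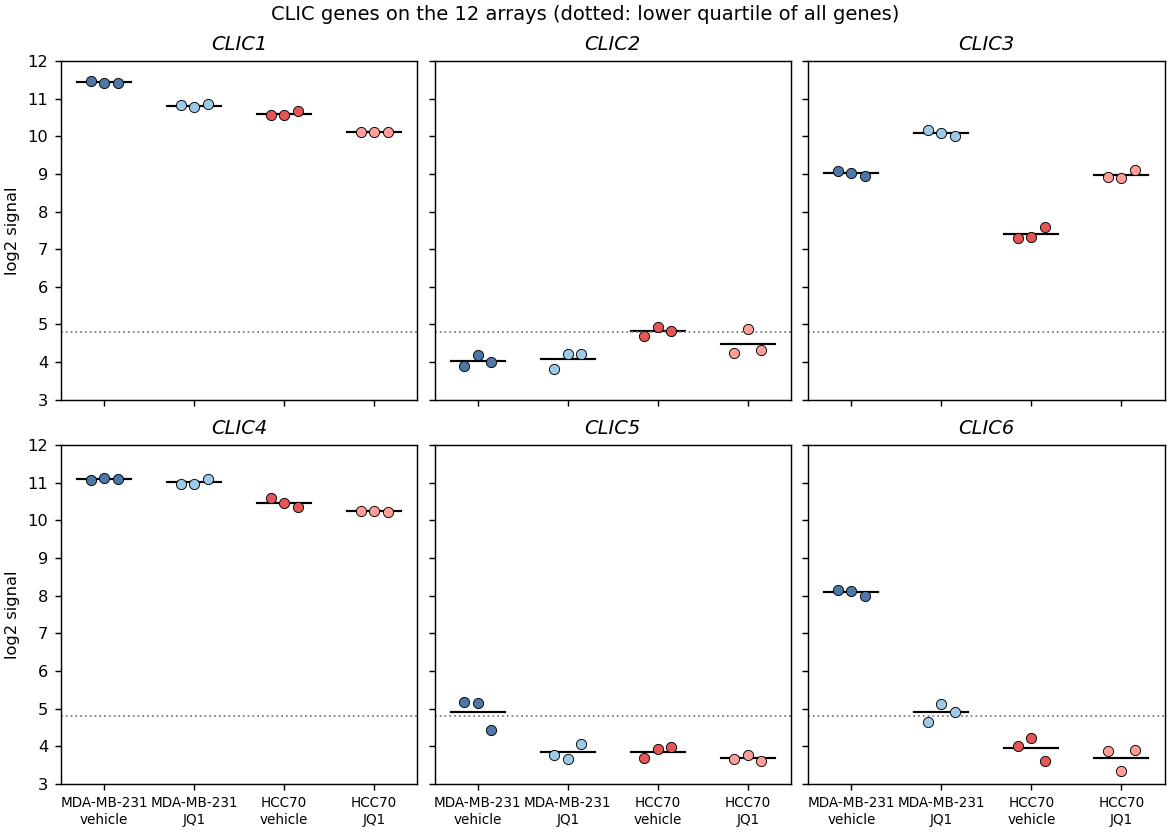
Log2 signal of each CLIC gene on the 12 arrays, by group (points are arrays, the short line is the mean of 3, the dotted line the lower quartile of all genes averaged over the 4 groups). CLIC6 is high only in vehicle-treated MDA-MB-231, CLIC3 is higher under JQ1 in both lines, and CLIC2 stays near or below the dotted line; levels of different genes are not comparable with each other.

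CLIC6 is the family member with a long extension before the GST-like part, and its protein binds D2-like dopamine receptors. Its log2 signals in vehicle-treated MDA-MB-231 were 8.15, 8.13 and 7.99. Under JQ1 they were 4.65, 5.13 and 4.92. All 3 JQ1 arrays lay more than 2 log2 units under the lowest vehicle array, and the JQ1 mean of 4.90 was close to 4.81, the lower quartile of all genes on those arrays. The change was -3.19 ± 0.18 (log2, SE of the limma coefficient, n = 3 arrays per group, 95% interval -3.58 to -2.79), which ranked 2 among 14884 genes ordered from the largest fall.

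In HCC70 the CLIC6 signals were 4.01, 4.21 and 3.6 in vehicle and 3.86, 3.33 and 3.89 under JQ1. These groups overlap, and all 6 arrays lay below the lower quartile of all genes. The change in HCC70 was -0.25 ± 0.18 (95% interval -0.64 to 0.14), from a level at which a fall could hardly be measured. HCC70 vehicle arrays lay at least 17.7-fold below MDA-MB-231 vehicle arrays (log2 difference -4.15 ± 0.18), a lower bound because the HCC70 level was dim. Under JQ1 the difference between the lines was -1.21. In the order of levels vehicle-treated MDA-MB-231 came first and JQ1-treated MDA-MB-231 next, and below them the HCC70 groups overlapped with each other only.

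CLIC3 is a secreted and vesicular member that acts as a glutathione-dependent oxidoreductase and takes part in the recycling of integrins and of the matrix protease MMP14. Its signals in MDA-MB-231 were 9.08, 9.02 and 8.94 in vehicle and 10.16, 10.10 and 10.02 under JQ1. In HCC70 they were 7.29, 7.33 and 7.58 in vehicle and 8.93, 8.90 and 9.10 under JQ1. The groups were apart in both lines, and all levels were well above the lower quartile. The log2 change was 1.08 ± 0.098 in MDA-MB-231 and 1.57 ± 0.098 in HCC70 (n = 3 arrays per group), ranks 89 and 15 among 14884 genes ordered from the largest rise. The vehicle level was 3.05-fold lower in HCC70, and the arrays of JQ1-treated HCC70 overlapped with those of vehicle-treated MDA-MB-231 (means 8.97 and 9.01). The other neighbours in the order of levels did not overlap.

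CLIC1, the most widely studied member, moves between cytoplasm, nucleus and membrane with the redox state of the cell. It had 5 transcript clusters, 3 of which shared their values with another, and at most 0.060 log2 units parted any pair of them on an array, so they are 1 measurement. The brightest gave 11.48, 11.41 and 11.43 in MDA-MB-231 vehicle and 10.82, 10.77 and 10.85 under JQ1. In HCC70 it gave 10.57, 10.56 and 10.68 in vehicle and 10.12 on each of the 3 JQ1 arrays. None of the 4 groups overlapped with another. CLIC1 fell by 0.63 ± 0.073 in MDA-MB-231 and by 0.48 ± 0.073 in HCC70 on the log2 scale, and its vehicle level was 1.79-fold lower in HCC70.

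The promoter sequences of CLIC3 and CLIC1 are shown because these members were called in both lines in opposite directions. Each is the 250 bases before the gene's start in RefSeq (GRCh38.p14), printed 5′ to 3′ on the gene's own strand, which is the minus strand for both. CLIC3 lies at chr9:136996569-136996818 and CLIC1 at chr6:31736531-31736780, the latter inside the span of the CLIC1 gene model. Capitals mark matches, on either strand, to the GC box GGGCGG, the TATA box TATAAA, the CCAAT box CCAAT, the E-box CACGTG or the AP-1 site TGANTCA.
CLIC3: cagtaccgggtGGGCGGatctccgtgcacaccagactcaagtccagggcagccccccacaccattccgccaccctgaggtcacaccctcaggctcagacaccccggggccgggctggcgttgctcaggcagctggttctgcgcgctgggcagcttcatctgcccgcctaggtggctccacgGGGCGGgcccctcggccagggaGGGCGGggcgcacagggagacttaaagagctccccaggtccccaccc
CLIC1: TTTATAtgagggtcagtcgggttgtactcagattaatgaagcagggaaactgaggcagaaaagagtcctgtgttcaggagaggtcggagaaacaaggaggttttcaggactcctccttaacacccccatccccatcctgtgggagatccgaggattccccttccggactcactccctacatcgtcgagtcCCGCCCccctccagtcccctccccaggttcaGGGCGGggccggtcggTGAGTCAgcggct

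The CLIC3 sequence held 3 matches to the GC box and none to the other motifs, with 70.4% G and C. The CLIC1 sequence held 2 matches to the GC box, 1 to the TATA box and 1 to the AP-1 site, with 57.6% G and C. Of 35116 RefSeq promoter windows of the same length, 42.6% held a GC box, 10.7% a TATA box and 6.57% an AP-1 site. No motif match overlapped with another in these sequences. A match is a description of the letters and says nothing of which factor was bound in these cells. Windows were found for 5 of the 6 members, CLIC6 having no entry. CLIC2 and CLIC4 were called under JQ1 in neither line. The CLIC2 window held 1 match to the TATA box and 1 to the AP-1 site, and the CLIC4 window 2 to the GC box. CLIC5, which fell in MDA-MB-231, had a window with 4 matches to the GC box. Another of its windows held 1 match to the TATA box and 2 to the CCAAT box, and a further window 2 to the CCAAT box. Whether any match bears on a change under JQ1 was not tested.

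CLIC4 shuttles to the nucleus and shields phosphorylated SMADs in TGF-beta signalling. Its signals were 11.07, 11.12 and 11.09 in MDA-MB-231 vehicle and 10.98, 10.96 and 11.09 under JQ1, which overlap. The change there was -0.08 ± 0.080 (95% interval -0.26 to 0.09). In HCC70 the signals were 10.60, 10.46 and 10.37 in vehicle and 10.25, 10.25 and 10.23 under JQ1. The HCC70 groups did not overlap, but the change of -0.23 ± 0.080 (95% interval -0.40 to -0.05) was not called. The count of members whose arrays did not overlap was 4 in MDA-MB-231 and 3 in HCC70, beside 38.0% and 37.4% of all genes. CLIC4 was 1.54-fold lower in HCC70 vehicle than in MDA-MB-231 vehicle.

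CLIC5 links the membrane to the actin core of stereocilia and podocyte processes, through ezrin and its relatives. The annotation ties its transcript cluster to a non-coding RefSeq transcript of the gene. Signals were 5.17, 5.14 and 4.43 in MDA-MB-231 vehicle and 3.77, 3.66 and 4.07 under JQ1. The groups were apart, with vehicle replicate 3 well below the other vehicle arrays and JQ1 replicate 3 above the other JQ1 arrays. The vehicle mean of 4.91 was close to 4.77, the lower quartile of all genes on those arrays, and vehicle replicate 3 lay below that quartile. CLIC5 fell by 1.08 ± 0.18 to a level below the lower quartile, so the 2.11-fold change is a lower bound. In HCC70 the signals were 3.68, 3.92 and 3.97 in vehicle and 3.67, 3.77 and 3.61 under JQ1, all of them dim, with a change of -0.17 ± 0.18 (95% interval -0.56 to 0.21). The vehicle difference between the lines was -1.05, also a bound, and under JQ1 it was -0.15, with overlapping arrays.

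CLIC2, best known as a modulator of ryanodine receptors, was near or below the lower quartile of all genes in each group. Signals were 3.90, 4.18 and 4.0 in MDA-MB-231 vehicle and 3.82, 4.22 and 4.22 under JQ1. In HCC70 they were 4.70, 4.92 and 4.83 in vehicle and 4.23, 4.87 and 4.31 under JQ1. JQ1 and vehicle overlapped in both lines, with changes of 0.06 ± 0.17 and -0.35 ± 0.17 (95% intervals -0.30 to 0.42 and -0.71 to 0.01). Leaving out 1 array moved the HCC70 change to between -0.55, without JQ1 replicate 2, and -0.23, without JQ1 replicate 1. CLIC2 was the 1 member with the higher vehicle level in HCC70, by 0.79 ± 0.17, while its MDA-MB-231 level lay below the lower quartile. Between the vehicle-treated lines 5 of 6 members were called lower in HCC70, beside 23.2% of all genes, and 1 higher, beside 23.8% (47.0% in either direction). The arrays of the lines did not overlap for any of the 6 members, beside 55.2% of all genes.

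**Figure D2:**
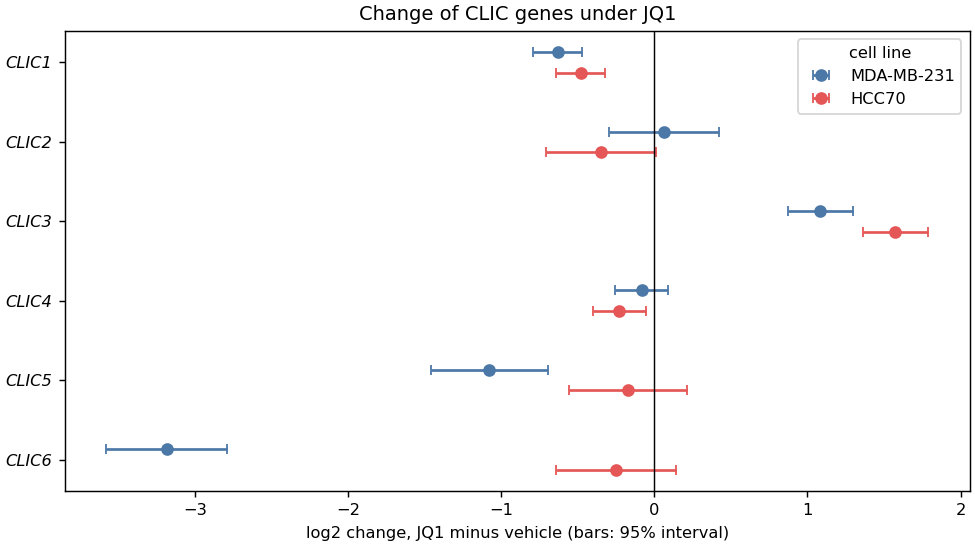
Log2 change under JQ1 (JQ1 minus vehicle) of each CLIC gene in MDA-MB-231 and HCC70, with the 95% interval of the limma coefficient. The intervals of CLIC1 and CLIC3 lie on one side of 0 in both lines, and the change of CLIC6 is -3.19 in MDA-MB-231 and -0.25 in HCC70.

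Whether the JQ1 changes differed between the lines was asked of the difference of the changes (HCC70 minus MDA-MB-231), fitted over all genes. It was called for 3 of 6 members, all positive, beside 9.02% of all genes called positive and 5.95% called negative. For CLIC6 it was 2.94 ± 0.26, for CLIC5 0.90 ± 0.25 and for CLIC3 0.49 ± 0.14. Since it is made of the comparisons that were part of the choice, it is no independent support. For CLIC6 and CLIC5 the HCC70 arrays were dim before treatment, so an equal fall there could not have been seen. The CLIC3 and CLIC5 calls each ended without any 1 of several arrays. For CLIC3 these were MDA-MB-231 vehicle replicates 1 and 2 and MDA-MB-231 JQ1 replicates 2 and 3. In HCC70 they were vehicle replicates 1 and 2 and JQ1 replicate 3. For CLIC5 they were replicates 1 and 2 of MDA-MB-231 vehicle, of MDA-MB-231 JQ1 and of HCC70 JQ1, and HCC70 vehicle replicate 1. For the other members the difference was 0.15 ± 0.10 for CLIC1 (95% interval -0.07 to 0.37), -0.41 ± 0.23 for CLIC2 (-0.92 to 0.10) and -0.14 ± 0.11 for CLIC4 (-0.39 to 0.10).

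CLIC6, CLIC5 and CLIC4 sit in related stretches of the genome, each beside an RCAN gene, which encodes a calcineurin regulator, and a RUNX transcription factor gene. By RefSeq gene order CLIC6 lies on chromosome 21 between RCAN1 and RUNX1, with 0 protein-coding genes in between on either side. CLIC5 on chromosome 6 has RUNX2 as a neighbour with 0 genes between, and RCAN2 on its other side with 2 between. CLIC4 on chromosome 1 lies beside RUNX3, with 2 genes between it and RCAN3. In MDA-MB-231 2 of these 6 neighbours fell and 0 rose, and in HCC70 3 fell and 0 rose, beside 17.0% and 12.5% of all genes called lower.

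RUNX2, the osteoblast master regulator, fell in both lines. Its signals in MDA-MB-231 were 8.87, 8.67 and 8.59 in vehicle and 7.18, 7.19 and 7.09 under JQ1, a change of -1.56 ± 0.10 (limma adjusted p = 1.9e-07). In HCC70 they were 6.17, 6.02 and 6.09 in vehicle and 5.57, 5.33 and 5.64 under JQ1, a change of -0.58 ± 0.10 (limma adjusted p = 0.0012). RCAN1 fell in MDA-MB-231 from 5.92, 5.78 and 5.87 to 4.85, 4.89 and 4.78, by 1.02 ± 0.087 (limma adjusted p = 2.0e-06). The log2 change of RCAN1 in HCC70 was -0.29 ± 0.087 (limma adjusted p = 0.030). It lost its call under 8 of 20 alternatives (highest adjusted p = 0.12), among them leaving out vehicle replicate 2 or 3 or JQ1 replicate 2 or 3. RUNX1, on the other side of CLIC6, had changes of 0.25 ± 0.091 and -0.24 ± 0.091, neither called. RCAN3 fell in HCC70 by 0.49 ± 0.11 (limma adjusted p = 0.0075). RCAN2 and RUNX3 were not called in either line. The RCAN and RUNX genes had a median log2 change of 0.0075 in MDA-MB-231 and -0.31 in HCC70.

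**Figure D3:**
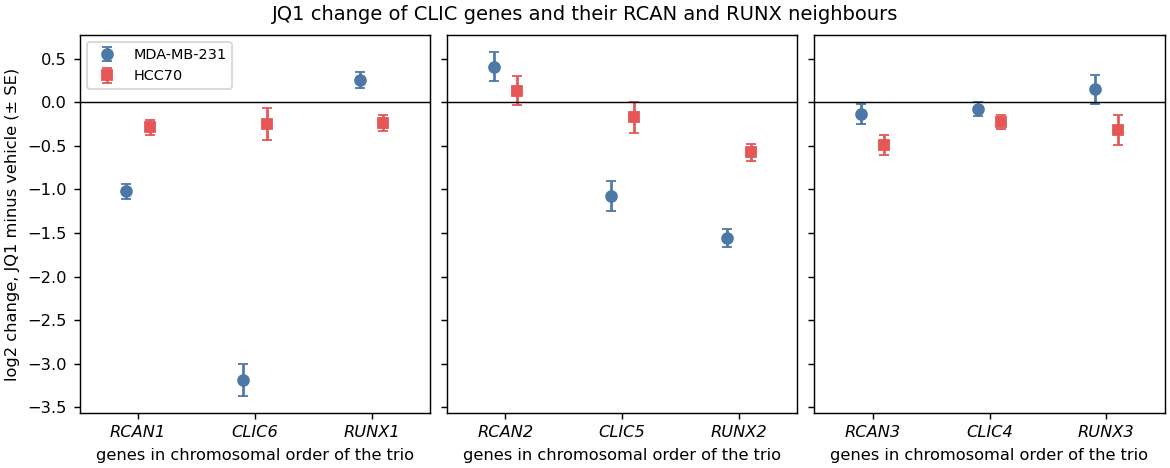
Log2 change under JQ1 (± SE) in both lines for CLIC6, CLIC5 and CLIC4, each drawn between its RCAN and RUNX neighbour. RUNX2 and RCAN1 lie below 0 beside CLIC5 and CLIC6 in MDA-MB-231 (-1.56 and -1.02), while RUNX1 lies at 0.25.

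The nearest gene with a value on each side of each member was looked up as well, after the members' values had been seen. Of the neighbours of CLIC3, LCNL1 and ENTPD2 were not called in either line (log2 changes 0.20 and 0.37 in MDA-MB-231, 0.04 and -0.25 in HCC70). Beside CLIC1, DDAH2 was not called in either line (-0.28 ± 0.11 and -0.30 ± 0.11), and MSH5-SAPCD1 was called higher in MDA-MB-231 (0.38 ± 0.13, limma adjusted p = 0.0499) and not in HCC70 (-0.07 ± 0.13). Beside CLIC2, VBP1 fell in MDA-MB-231 by 0.59 ± 0.099 (limma adjusted p = 0.00057), and its change in HCC70 (-0.18 ± 0.099) and those of SPRY3 (0.19 and 0.20) were not called. ENPP4, beside CLIC5, rose in MDA-MB-231 by 0.31 ± 0.11 (limma adjusted p = 0.044), with a change of -0.02 in HCC70. SRRM1, beside CLIC4, was not called (-0.02 and 0.17). LINC00160, the noncoding gene after CLIC6, was dim and not called (-0.13 ± 0.20 and -0.16 ± 0.20).

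CLIC proteins work at the membrane-actin border with ezrin, radixin and moesin. Of 7 genes of this group measured, 4 rose and 1 fell in MDA-MB-231, and 5 rose and 1 fell in HCC70, with medians of 0.27 and 0.37 on the log2 scale. Of all genes 10.8% and 9.18% were called higher in these lines, and 17.0% and 12.5% lower. Podocalyxin, PODXL, which ezrin anchors, rose by 0.88 ± 0.083 and 0.43 ± 0.083 (limma adjusted p = 4.8e-06 and 0.0024). The scaffold AKAP9, which binds CLIC proteins at the centrosome and Golgi, rose by 0.43 ± 0.080 and 0.51 ± 0.080 (limma adjusted p = 0.0013 and 0.00051). Moesin, MSN, was the 1 member that fell, by 0.58 ± 0.070 and 0.34 ± 0.070 (limma adjusted p = 4.6e-05 and 0.0033). Ezrin, EZR, rose by 0.26 ± 0.072 and 0.31 ± 0.072 (limma adjusted p = 0.016 and 0.0075). The EZR call in MDA-MB-231 ended without JQ1 replicate 3 and under 2 other alternatives (highest adjusted p = 0.080).

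Of the recycling and matrix partners of CLIC3 only MMP14, the membrane-bound matrix protease, had a value. MMP14 fell by 0.68 ± 0.089 in MDA-MB-231 and by 1.29 ± 0.089 in HCC70 (limma adjusted p = 8.3e-05 and 7.3e-07), the direction opposite to that of CLIC3.

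Of 7 measured TGF-beta and G-protein partners of CLIC4 and CLIC1, 3 rose and 1 fell in MDA-MB-231, and 0 rose and 2 fell in HCC70, with medians of 0.13 and -0.086 (10.8% and 17.0% of all genes rose and fell in MDA-MB-231, 9.18% and 12.5% in HCC70). The inhibitory SMAD7 rose by 0.65 ± 0.12 in MDA-MB-231 and fell by 0.78 ± 0.12 in HCC70 (limma adjusted p = 0.00095 and 0.00035), and the difference of the changes was -1.44 ± 0.17 (limma adjusted p = 7.8e-05). The sphingosine-phosphate receptor S1PR1 rose by 0.64 ± 0.17 in MDA-MB-231 (limma adjusted p = 0.015, and 0.057 at most, where MDA-MB-231 vehicle replicate 3 or the 3 most deviating arrays were left out). SMAD3, a signal carrier of the pathway, fell in MDA-MB-231 by 0.32, a call kept in few settings (limma adjusted p = 0.047, lost under 14 of 21 alternatives). In HCC70 S1PR1 fell by 1.24 ± 0.17 (limma adjusted p = 0.00022), a lower bound with a dim JQ1 level.

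Of 15 measured genes named as glutathione transferases, 5 rose and 3 fell in MDA-MB-231, beside 10.8% and 17.0% of all genes. Not all of these share the CLIC fold, and the list takes in the microsomal MGST genes. In HCC70 4 rose and 5 fell, beside 9.18% and 12.5%, and the list medians were 0.28 and -0.12. The omega-class enzymes are the closest relatives in fold. Of these GSTO1 fell in both lines, by 0.40 ± 0.11 and 0.56 ± 0.11 (limma adjusted p = 0.017 and 0.0029). GSTO2 fell in HCC70 by 1.25 ± 0.15 (limma adjusted p = 6.0e-05) and was not called in MDA-MB-231 (0.25 ± 0.15). GSTM3 rose in both lines, by 1.32 ± 0.091 and 0.70 ± 0.091 (limma adjusted p = 2.9e-07 and 0.00013). GSTM4 rose by 0.47 ± 0.12 in MDA-MB-231 but fell by 1.15 ± 0.12 in HCC70 (limma adjusted p = 0.0097 and 1.9e-05). Genes of the GSTM class are close copies of each other, so their probes may share signal. The microsomal MGST3 rose by 0.54 ± 0.11 and 0.71 ± 0.11, while MGST2 fell by 1.11 ± 0.20 and 0.82 ± 0.20 (limma adjusted p at most 0.0095).

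Of 45 listed genes of other chloride channels and transporters, 19 were measured. The listed CLCN, LRRC8 and SLC12 genes, CFTR and ANO1 had no value. ANO3, ANO4, ANO5, BEST3 and the measured CLCA genes lay below the lower quartile of all genes in each group. Of the 19, 2 rose and 3 fell in MDA-MB-231, and 4 rose and 0 fell in HCC70 (limma, with 27.8% and 21.7% of all genes called in either direction). Among these, the call of the scramblase ANO6 in HCC70 ended under 13 of 21 alternatives (highest adjusted p = 0.16) and that of ANO9 in MDA-MB-231 under 8 of 20 (0.11). The list medians were 0.085 and 0.027. OSTM1, the partner subunit of a lysosomal chloride transporter, fell by 0.83 ± 0.14 in MDA-MB-231 and rose by 0.58 ± 0.14 in HCC70, and the difference of the changes was 1.41 ± 0.20 (limma adjusted p = 0.00046). PACC1, the proton-activated chloride channel, rose in HCC70 by 0.70 ± 0.14 (limma adjusted p = 0.0028). In MDA-MB-231 PACC1 was called lower (-0.41 ± 0.14, limma adjusted p = 0.044) with overlapping arrays, and 13 of 21 alternatives ended the call. None of the 19 had a change as large as those of CLIC6 in MDA-MB-231 or CLIC3 in HCC70. Those CLIC changes were part of how the family was chosen, so this is a description and supports nothing.

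**Figure D4:**
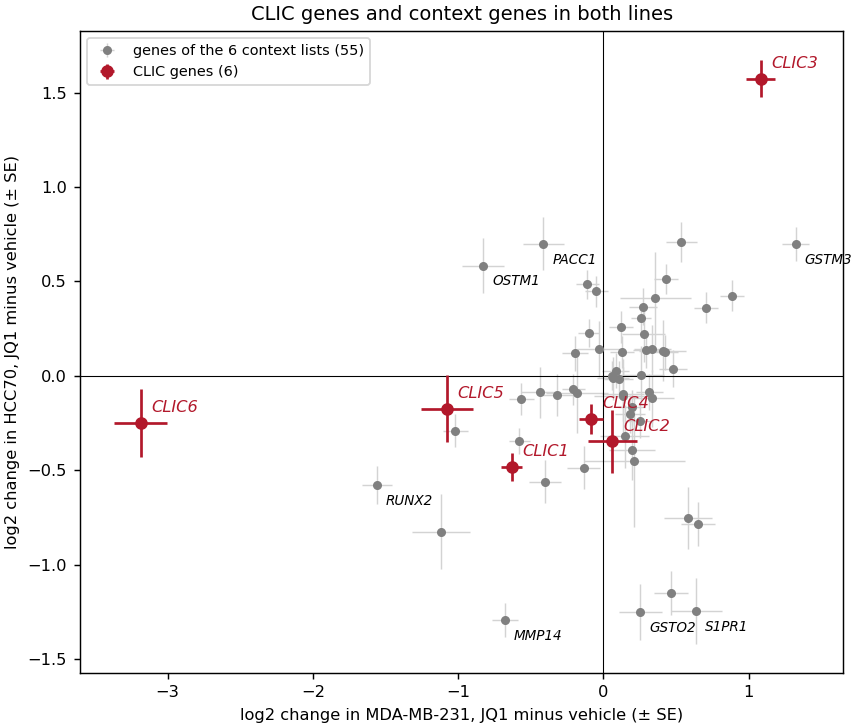
Log2 change under JQ1 in MDA-MB-231 (horizontal) and HCC70 (vertical), both ± SE, for the 6 CLIC genes and the 55 measured genes of the context lists. CLIC6 lies farthest left at -3.19 and CLIC3 highest at 1.57; RUNX2 and MMP14 are lower in both lines.

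Genes with a pattern most like a member were taken by Pearson correlation over the 12 arrays, among members whose group means spanned at least 1 log2 unit. The points share cell lines and treatments, and the r values describe that shared layout. CLIC6 was followed most closely by the acute-phase gene SAA1 (r = 0.991), MILR1 (r = 0.990) and the glycosyltransferase GALNT5 (r = 0.988). GALNT5 had means of 7.46 and 5.09 in vehicle and JQ1 in MDA-MB-231, and of 4.04 and 4.07 in HCC70. CLIC3 was followed by the ornithine decarboxylase gene ODC1 (r = 0.994), FNBP1 (r = 0.994) and the lysosomal sialidase NEU1 (r = 0.986). ODC1 had means of 9.81 and 10.37 in MDA-MB-231, and of 8.95 and 9.83 in HCC70. CLIC1 was followed by the interferon-induced IFITM2 (r = 0.990), the coagulation inhibitor TFPI (r = 0.987) and NSMAF (r = 0.987). The r value takes no account of size. TFPI had means of 9.34 and 6.97 in MDA-MB-231, where CLIC1 had 11.44 and 10.81. For CLIC5 the genes were POLR1H (r = 0.976), EXOSC2 (r = 0.962) and RILPL2 (r = 0.955). CLIC5 was dim in all groups but MDA-MB-231 vehicle, and there its mean was close to the lower quartile of all genes. EXOSC2 had means of 8.50 and 8.11 in MDA-MB-231, and of 8.07 and 8.06 in HCC70.

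Some markers of cell state were also called under JQ1. EPCAM fell under JQ1 in MDA-MB-231 by 1.74 ± 0.13 (limma adjusted p = 4.3e-07). There 3 of 7 epithelial markers fell and 3 rose, beside 17.0% and 10.8% of all genes. In HCC70 3 epithelial markers rose and 0 fell, beside 9.18% and 12.5% of all genes. Also in HCC70, 2 of 4 mesenchymal markers fell, VIM by 1.72 ± 0.11 (limma adjusted p = 4.7e-07). Array medians of the epithelial list ran from 7.29 to 7.43 in vehicle and 6.06 to 6.98 under JQ1 in MDA-MB-231, and from 10.22 to 10.43 and 10.47 to 10.63 in HCC70. The macrophage marker CD68 rose in HCC70 by 0.82 ± 0.074 (limma adjusted p = 6.3e-06), and CSF1R fell in MDA-MB-231 by 0.45 ± 0.14 (limma adjusted p = 0.032). Array medians of these 2 blood markers ran from 8.46 to 8.76 and 8.33 to 8.38 in MDA-MB-231, and from 7.68 to 7.72 and 7.92 to 8.20 in HCC70. The part of the marker genes in the changes of the CLIC family was not tested.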

How the data were processed

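The authors deposited log2 values, 1 per transcript cluster and array. The submitters' processing notes list the tools RMA, oligo and limma with no version. No genome build is named for these values. Of 53617 clusters, 16098 had 1 gene symbol in the platform annotation, 0 had several and 37519 had none. For genes with more than 1 cluster (779) the one with the highest mean was kept, which left 14884 genes. Columns of other series numbered 0.

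With limma 3.58.1 (R 4.3.3), 1 mean per group was fitted over all 12 arrays (lmFit and eBayes, two-sided, Benjamini-Hochberg over all genes, threshold 0.05). No dim gene was left out, and a change that ends below the lower quartile of all genes is read as a bound. Members and lists were chosen with earlier results of these data known. Genes to name were the members, the 3 genes most like a member, and up to 4 called genes per list and comparison, by smallest p. Some genes that met this rule are not described above, among them ANO8, BEST1, ANO10, GSTK1, MYO6 and HIVEP2. Nearest neighbours and RUNX1, RUNX3, RCAN2 were added by position, and GSTO1 as a relative in fold. The calls of GSTO1 were not followed under the alternatives. Same-numbered vehicle and JQ1 arrays of MDA-MB-231 deviated together (r = 0.155, 0.121 and 0.362). So did vehicle replicate 2 and JQ1 replicate 1 (r = 0.121). The main fit did not pair arrays, and the replicate number entered only as a block among the alternatives. The procedure was tested on simulated data. Alternatives were the replicate block, each line alone, a variance trend, brighter genes, mean of clusters, quantile normalization, median centring, array weights, left-out arrays and a fit without the 3 most deviating arrays, which earlier results of these data had singled out. Promoters come from RefSeq (GRCh38.p14).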

Additional observations from a re-analysis of the deposited data

Results flagged for a closer look

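In the fit of the difference of the JQ1 changes (HCC70 minus MDA-MB-231, limma with Benjamini-Hochberg adjustment), 3 CLIC genes passed the threshold. All 3 were positive, beside 9.02% of all genes called positive and 5.95% called negative. The difference was 2.94 on the log2 scale for CLIC6, 0.905 for CLIC5 and 0.489 for CLIC3. It is made of the changes by which the family was chosen, so it is a description and no independent support. The call of CLIC3 was lost under 9 of 20 alternatives and that of CLIC5 under 7 of 19, against 0 of 19 for CLIC6. CLIC5 and CLIC6 were below the lower quartile of all genes in HCC70 before treatment. Single members were not searched for outlying arrays, since groups hold 3 arrays.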

How the results depend on the processing

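Of 486 values of single members under the alternatives, 459 kept their direction and their side of the threshold. The CLIC6, CLIC1, CLIC3 and CLIC5 changes in MDA-MB-231, the CLIC1 and CLIC3 changes in HCC70 and all 6 differences between the vehicle-treated lines did so under every alternative run that could give them. Among genes above the median level, where CLIC2, CLIC5 and CLIC6 are not tested, the members called were 2 in place of 4 in MDA-MB-231, 1 in place of 3 for the difference of the changes and 3 in place of 6 between the lines. With array weights 4 members in place of 2 were called in HCC70, CLIC4 and CLIC6 in addition; the cause was not tested. CLIC4 in HCC70 was also called with a variance trend, among brighter genes and after quantile normalization, and CLIC2 without JQ1 replicate 2 (-0.55). Leaving out 1 array gave 1 to 3 members called for the difference of the changes, 4 in MDA-MB-231, 2 to 3 in HCC70 and 6 between the lines. The CLIC3 difference of the changes also lost its call with quantile normalization and without the 3 most deviating arrays. These arrays are replicate 3 of all groups but HCC70 vehicle. The CLIC2 change in MDA-MB-231, 0.06, turned to -0.015 without those 3 arrays, and leaving out 1 array gave -0.00367 to 0.197. With the replicate number as a block, members called were 4 in MDA-MB-231, 3 in HCC70, where CLIC2 passed (-0.35), 3 for the difference and 6 between the lines. In HCC70 the deviations of arrays with the same number correlated at r = -0.059 to 0.070. Those of HCC70 vehicle replicate 2 and JQ1 replicate 1 correlated at r = 0.135. Whether same-numbered HCC70 arrays shared a culture or a batch was not tested. Signal over background limits CLIC2, CLIC5 and CLIC6, whose levels in HCC70 lay near or below the lower quartile of all genes. Without the 3 most deviating arrays HEXIM1 in MDA-MB-231 had adjusted p = 0.050. Of the genes called in MDA-MB-231 61.2% were lower as deposited and 48.9% with arrays centred on their medians, and in HCC70 57.7% and 43.9%.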
